A study of Mus musculus with 42 samples.

Results

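Peptide hormones of the gut, and 1 receptor for them, were followed through the differentiation of mouse embryonic stem cells (ESCs) towards Anterior Definitive Endoderm (ADE), with and without inhibition of EZH2. The genes were Pyy, Ghrl, Cck, Sst, Nts, Trh and the receptor gene Cckbr, 7 of the 22278 genes with at least 1 probe on the array. A probe was assigned to a gene by its RefSeq accession, and the probe with the highest mean over all arrays stood for the gene. The genes had been picked with their values in these arrays known, so their levels and differences are given as a description, with means, SDs and SEs but no p value. All cells came from 1 dual reporter ESC line, in which GFP is read out from the Gsc locus and RedStar from the Hhex locus. The untreated groups were ESC, unsorted cells of d2, the sorted populations d3 G-, d3 G+, d4 G-, d4 G+, d5 G-, d5 Glow and d5 Ghigh, defined by GFP, and the sorted populations d6 G+H- and d6 G+H+, both high for GSC and without or with HHEX. The inhibitor groups were d6 cultures of 3 regimens, for which the labels name no sort. Control had DMSO throughout, ES_EPZ had 2.5 µM EPZ6438 as ESCs and DMSO during differentiation, and ADE_EPZ had DMSO as ESCs and EPZ6438 during differentiation. EPZ6438 is a small molecule that blocks EZH2, the enzyme of Polycomb Repressive Complex 2 that methylates histone H3 at lysine 27. Each of the 14 groups had 3 arrays, from independent experiments.

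Enteroendocrine cells are scattered hormone-producing cells of the gut lining, which arises from definitive endoderm. They store peptides in dense granules after convertases and amidating enzymes have trimmed longer precursors. Peptide YY (Pyy) is secreted after meals by cells of the distal gut and slows gut transit. Ghrelin (Ghrl) is the stomach hormone of hunger, cholecystokinin (Cck) triggers bile and pancreatic enzyme release, and somatostatin (Sst) restrains the secretion of other hormones. Neurotensin (Nts) is a peptide of the lower small intestine and the brain, and thyrotropin-releasing hormone (Trh) is best known from the hypothalamus. Cckbr encodes a receptor of gastrin and cholecystokinin, through which gastrin drives gastric acid secretion. Pyy and Cckbr also stand in the list of definitive endoderm markers used by the study.

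The DNA around the starts of the genes is shown first, since several of them had their highest mean in the same group. RefSeq start sites of GRCm38.p6 gave 11 windows for the 7 genes, each from 250 bases before to 50 bases after the start and written 5′ to 3′ on the strand of the gene. Capitals mark matches, on either strand, to TGACGTCA (the cAMP response element), TGTTTAC (a forkhead motif) and AGATAA (bound by GATA factors), none of which overlapped another. Of the 32851 windows of all genes, 1.79% held the first, 3.65% the second and 11.2% the last. Pyy (chr11:102107727-102108026, minus strand), Sst (chr16:23890795-23891094, minus), Cck (chr9:121495645-121495944, minus), Cckbr (chr7:105425481-105425780, plus) and Trh (chr6:92244601-92244900, minus) are printed. The means of all these genes were highest in d6 G+H+, and Trh is shown also for its base composition.
Pyy: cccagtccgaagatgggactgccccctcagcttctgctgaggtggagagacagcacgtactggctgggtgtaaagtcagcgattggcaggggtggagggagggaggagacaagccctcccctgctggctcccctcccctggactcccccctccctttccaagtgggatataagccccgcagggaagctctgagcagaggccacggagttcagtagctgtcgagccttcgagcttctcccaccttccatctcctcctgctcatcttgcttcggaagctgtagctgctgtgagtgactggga
Sst: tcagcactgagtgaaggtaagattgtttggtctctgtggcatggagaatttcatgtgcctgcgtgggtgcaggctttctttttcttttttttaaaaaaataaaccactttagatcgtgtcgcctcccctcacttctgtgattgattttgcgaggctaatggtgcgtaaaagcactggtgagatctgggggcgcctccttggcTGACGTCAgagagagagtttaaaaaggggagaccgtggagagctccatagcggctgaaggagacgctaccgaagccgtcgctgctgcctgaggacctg
Cck: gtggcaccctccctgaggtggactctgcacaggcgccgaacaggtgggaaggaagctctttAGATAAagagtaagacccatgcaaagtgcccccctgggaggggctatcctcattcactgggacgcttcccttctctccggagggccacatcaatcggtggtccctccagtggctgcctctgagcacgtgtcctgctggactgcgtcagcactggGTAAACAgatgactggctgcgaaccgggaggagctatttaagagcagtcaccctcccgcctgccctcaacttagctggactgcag
Cckbr: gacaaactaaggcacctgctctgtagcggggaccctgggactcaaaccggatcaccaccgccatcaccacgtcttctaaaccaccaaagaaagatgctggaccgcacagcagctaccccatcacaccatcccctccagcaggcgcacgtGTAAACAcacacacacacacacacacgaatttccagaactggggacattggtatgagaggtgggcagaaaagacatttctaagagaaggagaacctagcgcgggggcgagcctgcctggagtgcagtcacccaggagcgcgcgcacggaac
Trh: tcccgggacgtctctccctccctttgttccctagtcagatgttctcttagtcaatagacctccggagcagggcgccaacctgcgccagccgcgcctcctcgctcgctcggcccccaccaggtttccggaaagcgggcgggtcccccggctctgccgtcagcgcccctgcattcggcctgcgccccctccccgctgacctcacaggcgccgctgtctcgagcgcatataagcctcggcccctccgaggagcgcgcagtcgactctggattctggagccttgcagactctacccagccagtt

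The Sst window carried the cAMP response element, beginning at position -48 from the start. Forkhead letters stood at position -101 in Cckbr and at -35 in Cck. The GATA letters were present in Cck at -189 and in Nts at -131. The letters TATAAA, found on either strand in 13.6% of all windows, were in none of the 11 windows. Only this exact string was searched, and the printed windows of Pyy and Trh hold the near match tataag. These matches are letters in a window of this length, not measured binding. The windows differed in CpG content, with 28 CpG in Trh, 15 in Cckbr, 13 in Sst, 10 in Cck, 8 in each Pyy window, 3 in Nts and 1 to 3 in the 4 Ghrl windows. The median of all windows was 7, and 87.1% of them had at most the 28 CpG of Trh.

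Levels are log2 intensities after the authors' normalisation, in which 1 unit is a doubling of signal. Each array carried 55681 unique probes, of which 25884 to 40394 were well above background in the untreated series and 24446 to 34788 in the inhibitor series. These numbers also differed within groups. In d2 they were 29883, 29618 and 37547 in replicates 1, 2 and 3. Counts of arrays above background therefore depend on the array as well as on the level. Of the fixed marker lists, all 8 genes for primitive streak and definitive endoderm were called higher and all 7 pluripotency genes lower in d6 G+H+ than in ESC. Of all genes, 10.8% were called in that comparison. Sox17, a definitive endoderm factor, was 12.60 ± 0.41 (SD, n = 3) in d6 G+H+ and 11.54 ± 0.31 in Control. Replicates 1 and 2 of the untreated groups were on 3 slides and replicate 3 on 2 others, while 3 further slides held the inhibitor series, with 1 array of every regimen on each. Untreated and inhibitor arrays shared no slide, so for a level set across the 2 series, group and slide cannot be told apart. The arrays measure bulk RNA, in which more cells with a transcript and more transcript per cell cannot be told apart.

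**Figure D1:**
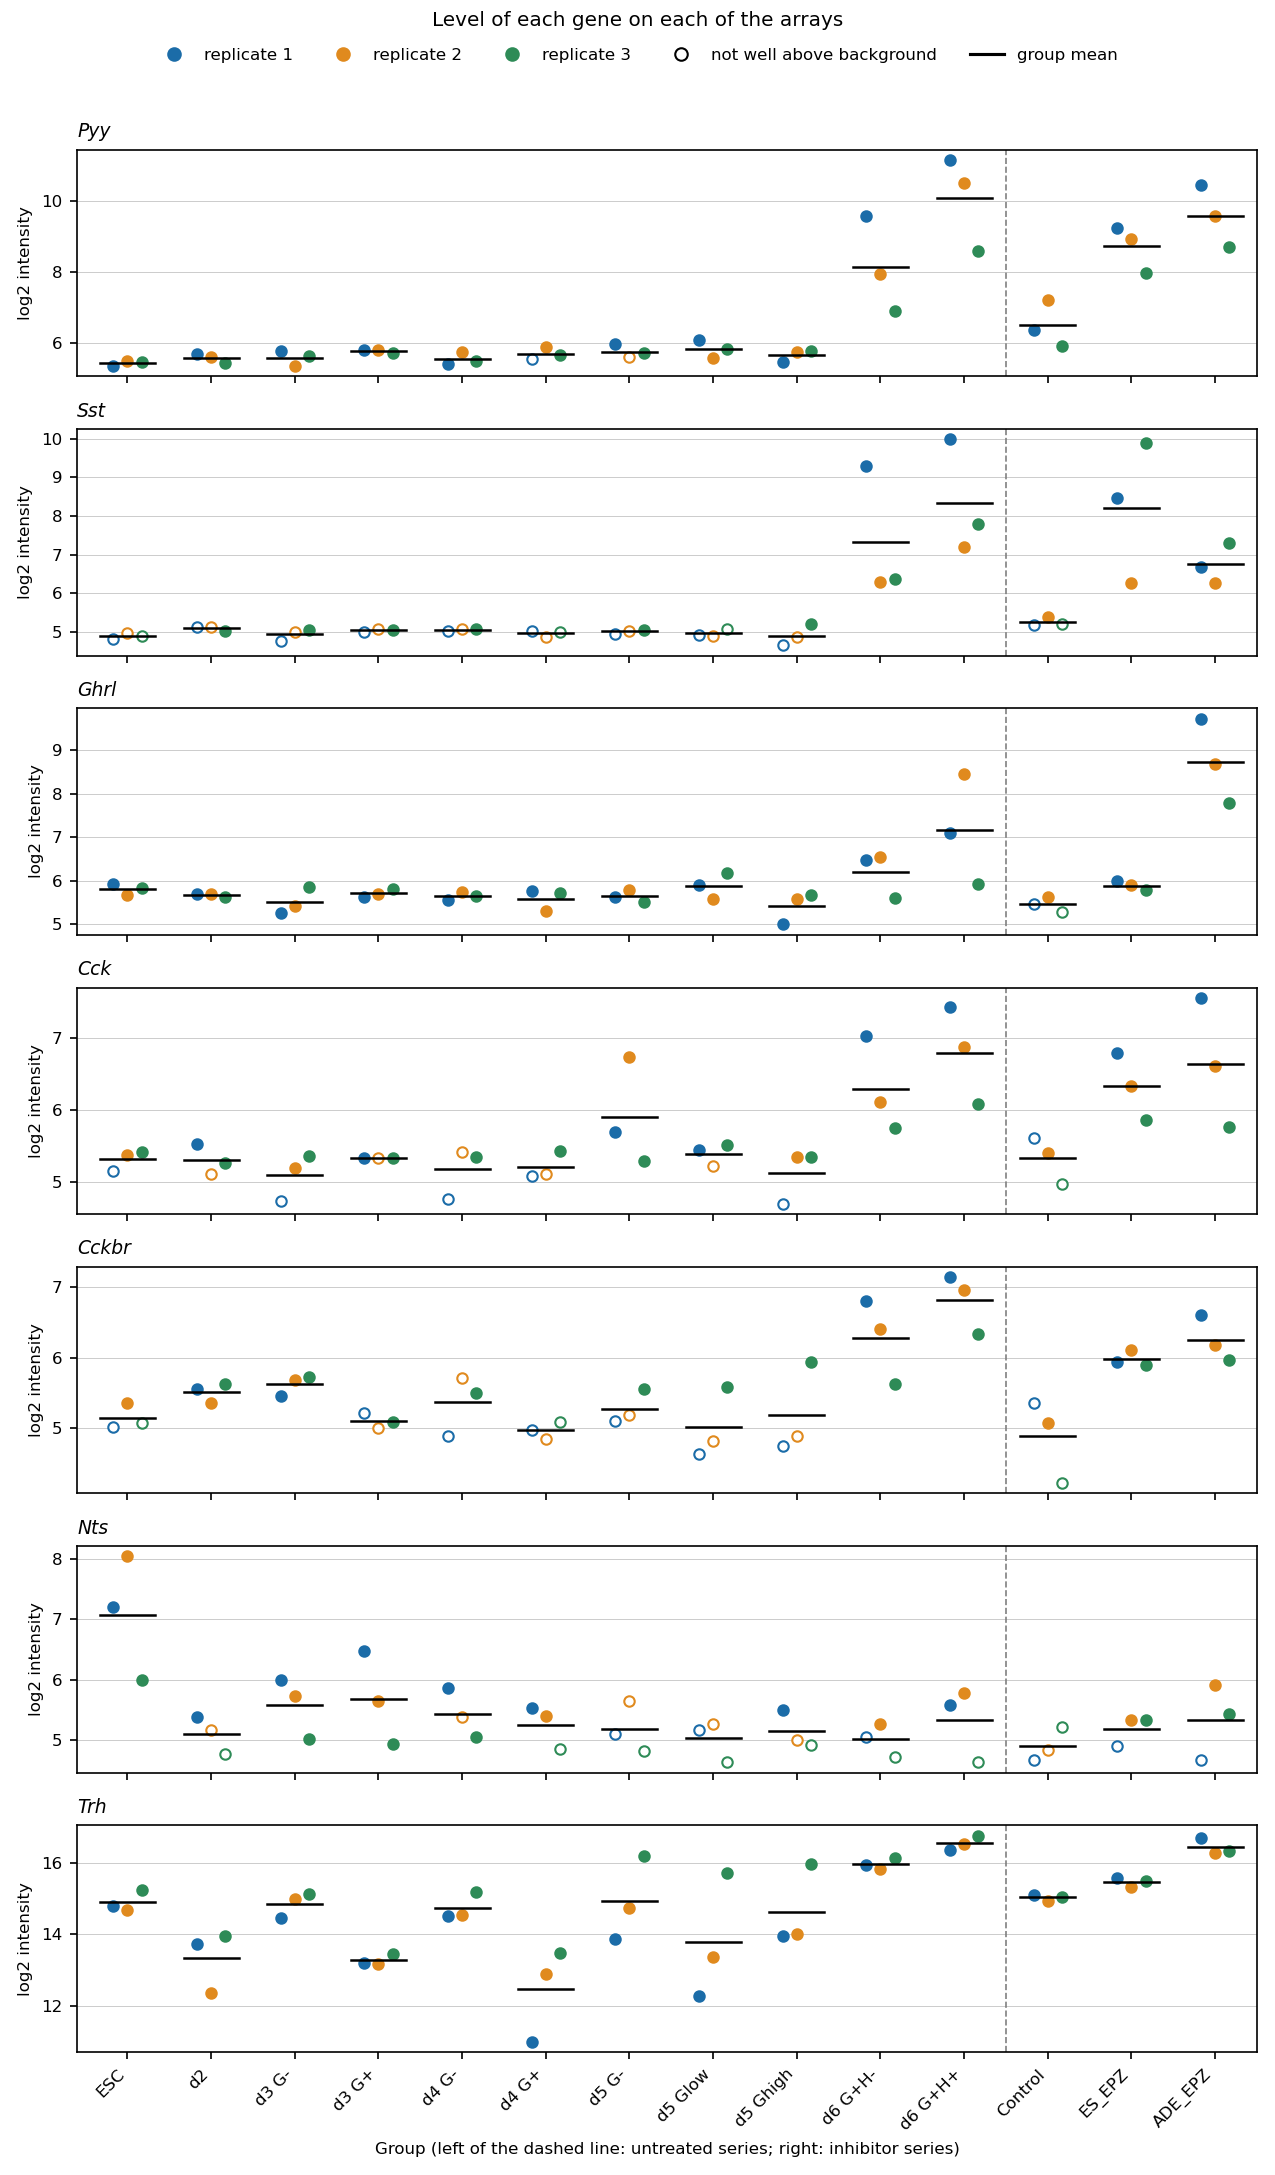
Log2 intensity (y axis) of the 7 genes on every array of the 14 groups (x axis), with colours for the replicate number, open points for arrays where the probe was not well above background, and a bar for the mean of each group. The means of Pyy, Sst, Cck, Cckbr and Trh are highest in the sorted d6 G+H+ cells, and Control lies below both EPZ6438 regimens for these genes. Nts is highest in ESC, and Trh is bright on every array.

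Pyy was the gene with the widest change among the hormones. On the 27 arrays from ESC to d5 its level stayed between 5.36 and 6.09. In replicates 1 to 3 of d6 G+H- it was 9.56, 7.93 and 6.89, and d6 G+H+ gave 11.14, 10.49 and 8.59. Every array of both sorted d6 populations was thus above every array from ESC to d5, and replicate 3 was the lowest of both populations. The group means were 5.45 ± 0.07 in ESC, 8.13 ± 1.34 in the d6 cells without HHEX and 10.07 ± 1.32 in those with it (SD, n = 3). Against ESC the difference of d6 G+H+ was 4.63 (SE 0.48), or 24.7-fold. It was 5.38 over replicates 1 and 2 and 3.12 in replicate 3. Between d6 G+H+ and d6 G+H- it was 1.95 (SE 0.48), and it was 1.58, 2.56 and 1.70 within replicates 1, 2 and 3, although the ranges of the populations overlapped. Each SE, here and below, rests on 1 variance per probe, pooled over all groups in the fit. It is therefore the same for a probe in every comparison of 2 groups, 0.48 for Pyy. The spread of the groups compared is not read from it, and is given by their SDs, here 1.32 and 1.34.

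Sst went from a level at background to a bright signal in the same sorted d6 populations. Its probe was well above background on 6 of the 27 arrays from ESC to d5, where it lay between 4.66 and 5.20. All 6 were arrays of replicate 3. In d2 the probe was marked at 5.04 in replicate 3 but not at 5.12 and 5.13 in replicates 1 and 2. The d6 G+H- arrays gave 9.29, 6.30 and 6.36, and those of d6 G+H+ gave 9.98, 7.21 and 7.78. No array of these sorted d6 populations overlapped one from ESC to d5, while replicate 1 was the highest of both populations by more than 2 units. Because no ESC array was above background, the fold between the group means is a bound, at least 10.4-fold higher in d6 G+H+. The bound allows for an ESC level below detection, not for the spread of replicates. The fitted log2 difference was 3.43 (SE 0.60). It was 3.70 over replicates 1 and 2 and 2.89 in replicate 3.

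Ghrl was measured above background on all untreated arrays, but its d6 levels differed widely between replicates. From ESC to d5 it lay between 5.00 and 6.19. The d6 G+H- arrays had 6.47, 6.56 and 5.60, and the d6 G+H+ arrays 7.11, 8.45 and 5.92. Replicate 3 of both d6 populations therefore lay within the earlier range, and the higher mean of d6 G+H+, 7.16 ± 1.26, came from replicates 1 and 2. The difference from d5 Ghigh was 1.74 (SE 0.37) over all replicates, 2.48 over replicates 1 and 2 and 0.25 in replicate 3.

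Cck and its receptor gene Cckbr were both dim before d6. Cck lay between 4.70 and 6.74 from ESC to d5, with the top value in replicate 2 of d5 G-. Its d6 G+H- values were 7.03, 6.12 and 5.75, and those of d6 G+H+ were 7.43, 6.88 and 6.09. The d6 G+H+ arrays did not overlap those of ESC or d5 Ghigh, from which the mean differed by 1.48 and 1.67 (SE 0.36 for each). Cckbr was above background on 12 of the 27 arrays from ESC to d5 and on all 6 arrays of the sorted d6 populations. The d6 G+H+ level was 7.14, 6.96 and 6.33, that of d6 G+H- 6.80, 6.40 and 5.62, and that of ESC 5.02, 5.35 and 5.07. The groups d6 G+H+ and ESC did not overlap, and the difference was 1.66 (SE 0.30). A second Cckbr probe did not follow this pattern. It stayed between 4.64 and 5.62 on all 42 arrays, and its difference between d6 G+H+ and ESC was 0.20 (SE 0.18). The change of Cckbr therefore rests on 1 of its 2 probes.

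Nts ran the other way. It was 7.20, 8.04 and 6.00 in ESC and lay between 4.64 and 6.48 on the 30 untreated arrays from d2 to d6. Its mean was below that of ESC in every later group, and in d6 G+H+, with 5.58, 5.78 and 4.64, the difference from ESC was -1.75 (SE 0.39). The lowest ESC array was above all 3 d6 G+H+ arrays. Nts was well above background on 15 of those 30 arrays, so these differences are near the limit of what its probe can show.

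Trh differed from the other hormones in that its probe was well above background on all 42 arrays. In ESC it was 14.79, 14.69 and 15.24. The GFP-positive populations of d3 and d4 had the lowest means, with 13.21, 13.17 and 13.45 in d3 G+ and 11.02, 12.90 and 13.49 in d4 G+. At d3 these did not overlap with the 14.45, 14.98 and 15.13 of d3 G-, and the difference was -1.58 (SE 0.60), or 2.98-fold lower. At d6 Trh was 15.94, 15.83 and 16.13 without HHEX and 16.35, 16.51 and 16.75 with it. Of the 7 genes only Trh had no overlap in range between these 2 populations, against 8.77% of all genes in either direction and 4.79% higher, with a difference of 0.57 (SE 0.60). Within replicate numbers, which pair these populations, Pyy, Ghrl, Cckbr, Cck, Sst and Trh were higher in d6 G+H+ in each of the 3 replicates, against 19.8% of all genes, and Nts in 2 of 3. No spot that was not a control carried the scanner's saturation mark.

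Trh and Nts also differed between replicate numbers. Replicate 3 had the highest Trh level in all 11 untreated groups, on average 1.05 above the mean of replicates 1 and 2. For Nts it was the lowest in all 11 groups, on average -0.75 from that mean. Of all genes, 3.13% were highest and 3.25% lowest in replicate 3 of every untreated group. The lower Trh of d3 G+ than of d3 G- was similar in both sets of slides, with -1.53 over replicates 1 and 2 and -1.68 in replicate 3.

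The order of the group means was loose for most of these genes. Of the 13 pairs of neighbours in that order, 0 were separate without overlap for Pyy, Ghrl, Cck and Nts, 1 for Cckbr, 2 for Sst and 3 for Trh. For Sst the gaps lay above and below Control, and for Trh between ADE_EPZ, d6 G+H-, ES_EPZ and Control. The highest group was d6 G+H+ for Pyy, Cckbr, Cck, Sst and Trh, ADE_EPZ for Ghrl and ESC for Nts.

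Counts by the study's own rule summarise these differences. A gene was called where its limma adjusted p was at most 0.01 and its absolute log2 difference at least 1.5, in a model of all 42 arrays. Between d6 G+H+ and ESC, 10.8% of all genes were called. Of the 7 genes Pyy, Sst and Cckbr were called higher and Nts lower, and none of the 7 overlapped between the groups, nor did 44% of all genes. The call of Nts was lost without replicate 2 of ESC, where its difference was -1.27, or without replicate 3 of d6 G+H+, where it was -1.40. Against d5 Ghigh, 4.01% of all genes were called. Pyy, Ghrl, Cckbr, Cck and Sst were called, all higher, as were 2.63% of all genes. All but Nts were without overlap and higher, against 33.6% of all genes in either direction and 16.4% higher. With replicate number as a block Trh was added, which made 6 called. Without replicate 1 of d5 Ghigh only Pyy and Sst were called, with differences of 1.53 for Ghrl, 1.40 for Cckbr and 1.45 for Cck. Without replicate 1 of d6 G+H+ the differences of Cckbr and Cck were 1.46 and 1.35, and without replicate 2 that of Ghrl was 1.1. Without replicate 2 of d5 Ghigh that of Cckbr was 1.47. Between d6 G+H+ and d6 G+H- limma called 0 of the 7 genes and 0 of all genes, of which 1309 had an unadjusted p under 0.05. The calls were made on genes chosen for these levels, so nothing is read from their number.

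**Figure D2:**
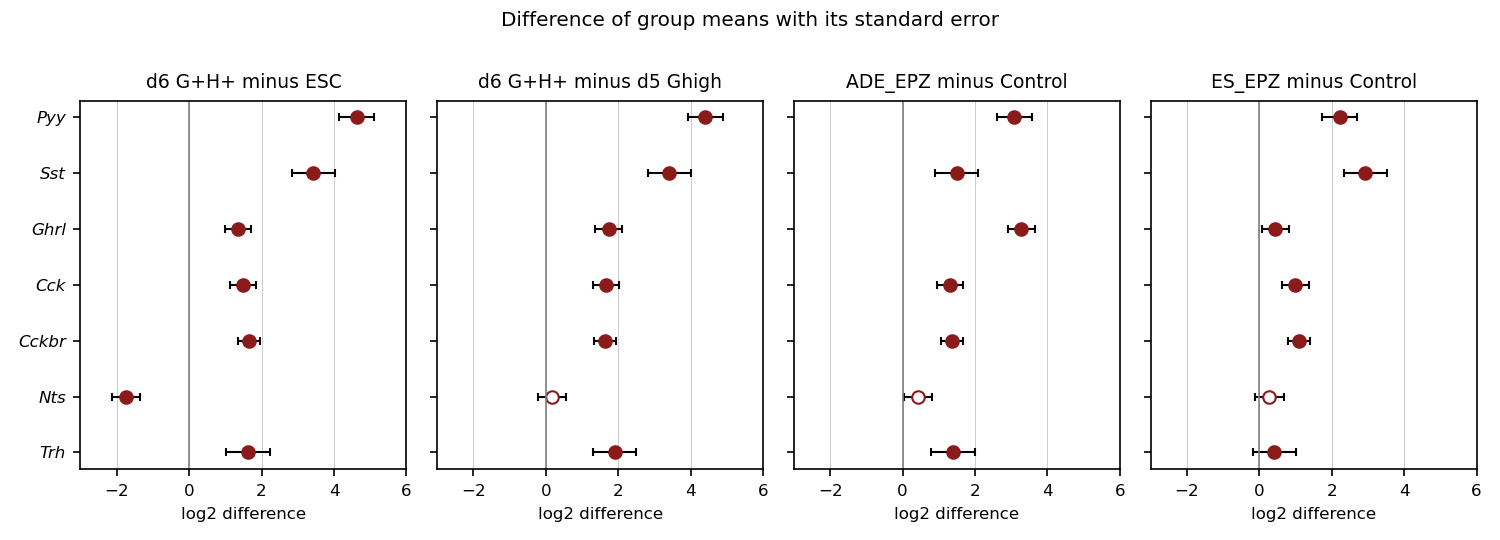
Log2 difference of group means (x axis) for each gene (y axis) in 4 comparisons, with bars for the SE of the fit, which is pooled over all groups. Filled points mark genes whose groups did not overlap, and the panel of d6 G+H+ minus ESC shows Pyy at 4.63 and Nts as the gene below 0.

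The GFP sort of the earlier days was asked next, because it separates cells that have switched on Gsc from those that have not. At d3, 1.74% of all genes were called and none of the 7. Cckbr and Trh were lower in d3 G+ without overlap, against 21.8% of all genes in either direction and 12% lower. Cckbr was 5.22, 5.00 and 5.08 in d3 G+ and 5.46, 5.68 and 5.72 in d3 G-, a difference of -0.52 (SE 0.30), and only 1 of the d3 G+ arrays was above background. At d5, 2.48% of all genes were called between Ghigh and G-, and again none of the 7. All 7 overlapped between the groups, against 22% of all genes that did not. Their differences at d5 ran from -0.77 (SE 0.36) for Cck to -0.05 (SE 0.39) for Nts.

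The inhibitor regimens were set beside Control to ask how these genes stood at d6 after EPZ6438 before or during differentiation. Pyy was 6.37, 7.21 and 5.92 in Control, 9.24, 8.93 and 7.98 in ES_EPZ and 10.45, 9.58 and 8.69 in ADE_EPZ. Neither regimen overlapped Control, and the differences were 2.22 for ES_EPZ and 3.08 for ADE_EPZ (SE 0.48 for each). Within slides 6, 7 and 8 the ADE_EPZ difference was 1.48, 4.54 and 3.22, and that of ES_EPZ was 0.77, 3.33 and 2.57. On each slide the Control array had another replicate number than the EPZ6438 arrays. This holds for every within-slide difference from Control. Pyy was thus higher under both regimens on every slide, with the smallest difference on slide 6, where Control was highest. Control itself, on slides of its own series, was at 6.50 ± 0.66, against 5.45 ± 0.07 in ESC.

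Ghrl distinguished the regimens. It was 5.46, 5.64 and 5.28 in Control, where 1 of 3 arrays was above background, and 5.99, 5.90 and 5.79 in ES_EPZ. In ADE_EPZ it was 9.73, 8.69 and 7.79. ADE_EPZ differed from Control by 3.28 (SE 0.37), a 9.72-fold higher level, and from ES_EPZ by 2.84 (SE 0.37). The within-slide differences between ADE_EPZ and ES_EPZ were 2.00, 3.74 and 2.79 on slides 6, 7 and 8. ES_EPZ exceeded Control by 0.44 (SE 0.37), and although the groups did not overlap, the slides gave 0.15, 0.71 and 0.45.

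Sst had its highest inhibitor levels in the other regimen, though with a wide spread. It was 5.19, 5.39 and 5.22 in Control, 8.47, 6.26 and 9.88 in ES_EPZ and 6.69, 6.27 and 7.30 in ADE_EPZ. Both regimens were separate from Control, by 2.93 and 1.49 (SE 0.60 for each), but they overlapped one another. On slides 6, 7 and 8 ES_EPZ exceeded Control by 4.48, 3.25 and 1.07. ADE_EPZ was below ES_EPZ by -2.58 on slide 6 and -1.78 on slide 7, and equal to it within 0.01 on slide 8.

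Cck, Cckbr and Trh were also higher under both regimens, by smaller amounts. Cck was 5.62, 5.4 and 4.97 in Control, 6.79, 6.33 and 5.87 in ES_EPZ and 7.56, 6.61 and 5.76 in ADE_EPZ, so the differences were 1.00 and 1.32 (SE 0.36). Cckbr was 5.36, 5.07 and 4.22 in Control and between 5.89 and 6.61 on the 6 EPZ6438 arrays, with differences of 1.09 and 1.37 (SE 0.30). Its second probe gave 0.08 and 0.39 (SE 0.18), with both regimens overlapping Control. Trh was 15.11, 14.94 and 15.04 in Control, 15.56, 15.32 and 15.48 in ES_EPZ and 16.69, 16.26 and 16.32 in ADE_EPZ. The Trh groups were ordered without overlap, with ADE_EPZ 1.39 above Control and 0.97 above ES_EPZ (SE 0.60 for each, pooled over all groups). The SDs of Trh within these groups were smaller, with 0.08 in Control, 0.12 in ES_EPZ and 0.23 in ADE_EPZ. Nts was not above background on any Control array, and its 9 inhibitor arrays lay between 4.68 and 5.91 with overlapping groups.

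**Figure D3:**
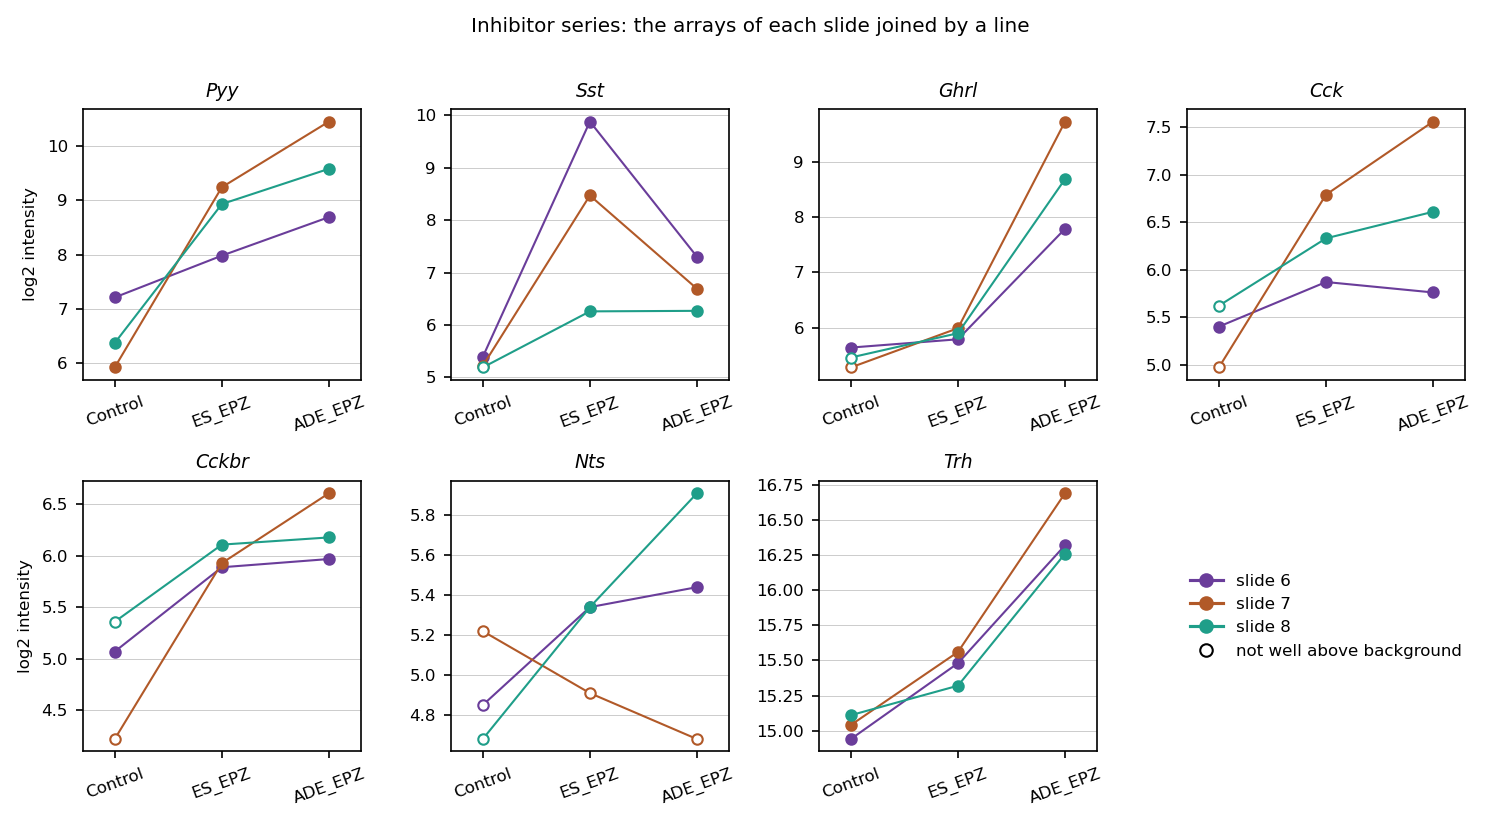
Log2 intensity (y axis) of each gene in Control, ES_EPZ and ADE_EPZ (x axis), with a line joining the 3 arrays of a slide and open points where the probe was not well above background. Ghrl is above 7 only in ADE_EPZ, Sst is highest in ES_EPZ on slides 6 and 7, and Trh is ordered the same way on every slide. The Control array of a slide has another replicate number than its EPZ6438 arrays.

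By the study's rule, Pyy and Ghrl were called in ADE_EPZ against Control, where 2.65% of all genes were called and 1.88% called higher. In ES_EPZ against Control 0.408% of all genes were called and 0.35% called higher, and of the 7 genes Sst was. That call was lost without any 1 of the 3 Control arrays or without replicate 1 or 3 of ES_EPZ, with differences from 2.10 to 3.00. With slide as a fixed block Pyy was called as well. In each of these comparisons 6 of the 7 genes did not overlap, all higher, against 38.8% of all genes in either direction and 19.5% higher for ADE_EPZ, and 27.4% and 13.7% for ES_EPZ. The 2 comparisons share the Control arrays. Between ADE_EPZ and ES_EPZ, where 0.126% of all genes were called and 0.112% called higher, Ghrl was called. Ghrl and Trh were higher in ADE_EPZ without overlap, against 18.4% of all genes in either direction and 10.1% higher.

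Markers of other cell types moved with some of these differences. In d6 G+H+ against d5 Ghigh, where 4.01% of all genes were called, 5 of 8 genes for visceral endoderm and liver were called higher and 5 of 8 mesoderm genes lower. The summed log2 level of the first list went from 50.6 to 65.4, that of the mesoderm list from 73.0 to 53.3. Among 11 neural genes, 0 were called in that comparison. Of the 11, 9 were above background on all 3 d6 G+H+ arrays and 8 on all 3 ESC arrays. Only Dcx, a marker of young neurons, was above background on 0 of the 3 d6 G+H+ arrays. Against ESC, where 10.8% of all genes were called, Six3 was called higher and Elavl3, Map2, Stmn2 and Tubb3 lower. The summed level of the neural list was 86.1 in ESC and 77.8 in d6 G+H+. In ADE_EPZ against Control, where 2.65% of all genes were called, 2 of 11 neural genes, Map2 and Stmn2, were called higher. The summed level of the neural list was 72.3 in Control, 77.9 in ADE_EPZ and 77.0 in ES_EPZ. Hhex was called higher in ADE_EPZ and Mixl1 lower, while 0 of 8 visceral endoderm and liver genes were called and their summed level was 62.4 in Control, 66.8 in ADE_EPZ and 59.8 in ES_EPZ. Of 7 pluripotency genes Zfp42 was called higher in ADE_EPZ, with 9.38 against 7.87 in Control, and the sum of that list was 49.6, 55.1 and 51.2 in the same order. The mesoderm list, with Meox1 called lower in ADE_EPZ, had sums of 71.9, 64.3 and 66.1. The part of these cells in the hormone levels was not tested.

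Other genes of hormone production were taken from 4 lists with 73 measured genes and tested with limma. In d6 G+H+ against ESC 14 were called higher and 3 lower, while 10.8% of all genes were called. The median difference was 0.16 over the lists and 0 over all genes. Of 21 other peptide hormone genes 4 were higher. Gip, the incretin made by K cells, was above background on no ESC array and at least 12.6-fold higher in d6 G+H+ (8.83 ± 0.44, limma adjusted p = 9.17e-14). Penk, the enkephalin precursor, rose by 7.21 (SE 0.61, limma adjusted p = 1.84e-11), and Grp, gastrin-releasing peptide, by at least 8.33-fold (limma adjusted p = 1.78e-06). The fourth was Tac1, the precursor of substance P, with 2.3 (SE 0.67, limma adjusted p = 0.0091). Its call was lost without replicate 2 or 3 of ESC or replicate 1 or 2 of d6 G+H+, where the difference was 1.70, 1.87, 2.07 and 2.03. Ppy, a protein-coding neighbour of Pyy in the annotation, was above background on 0 of 3 arrays of d6 G+H+, ESC and each inhibitor group.

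Of 16 receptor genes 1 was called, where 10.8% of all genes were. This was Sstr2, a somatostatin receptor, at least 2.37-fold higher (limma adjusted p = 4.55e-08). That call was lost without replicate 2 of d6 G+H+, where the difference was 1.42. Of 18 genes for prohormone processing, granules and hormone breakdown 4 were higher in d6 G+H+ than in ESC. Chga, the granule protein chromogranin A, differed by 5.52 (SE 0.35, limma adjusted p = 1.68e-14) and Pam, the enzyme that amidates peptide ends, by 2.91 (SE 0.28, limma adjusted p = 2.5e-10). Qpct, which closes the N terminus of peptides such as Trh and Nts, differed by 1.68 (SE 0.43, limma adjusted p = 0.00262), a call lost without replicate 3 of ESC or replicate 1 of d6 G+H+, where the difference was 1.57 and 1.38. Furin, a convertase, was the other, with 1.59 (SE 0.37, limma adjusted p = 0.00109). It was not called without replicate 3 of ESC or replicate 1 or 2 of d6 G+H+, where its difference was 1.18, 1.44 and 1.49.

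Among 18 transcription factor genes 5 were higher and 3 lower in d6 G+H+ than in ESC. Foxa2 and Foxa1, pioneer factors of endoderm, rose by 8.29 (SE 0.63, limma adjusted p = 1.53e-12) and 5.91 (SE 0.44, limma adjusted p = 1.1e-12). Rfx6, a factor of islet and gut endocrine cells, rose by 5.03 (SE 0.37, limma adjusted p = 4.86e-13). Isl1 and Nkx6-1 were also higher, and Etv1, Neurod1 and Pax6 lower. Pax6 differed by -1.68 (SE 0.21, limma adjusted p = 6.85e-08), and by -1.48 and not called without replicate 3 of ESC.

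Against d5 Ghigh, 9 of the 73 genes were higher and 3 lower in d6 G+H+, while 4.01% of all genes were called. The median difference was 0.18 over the lists and -0.01 over all genes. Chga again rose, from 9.24 ± 0.52 to 14.62 ± 0.29 (limma adjusted p = 4.46e-12), as did Gip, by 3.57 (SE 0.26, limma adjusted p = 1.75e-11). Penk rose by 3.26 (limma adjusted p = 0.000236) and Grp by 2.47 (limma adjusted p = 0.000283). Rfx6 rose by 4.37 (SE 0.37, limma adjusted p = 2.97e-10), Isl1 by 2.92 (limma adjusted p = 1.38e-07) and Qpct by 2.67 (limma adjusted p = 2.81e-05). Pcsk5, a convertase, fell from 10.65 ± 1.26 to 6.69 ± 0.19 (limma adjusted p = 2.46e-06), and Etv1 from 10.36 ± 0.38 to 7.22 ± 0.53 (limma adjusted p = 5.22e-09). Between d6 G+H+ and d6 G+H- limma called 0 of the 73.

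The earlier sorts called other genes of the lists. Between d5 Ghigh and d5 G-, 3 were higher and 2 lower, while 2.48% of all genes were called. Foxa1 was 12.18 ± 0.50 in Ghigh and 9.41 ± 0.70 in G- (limma adjusted p = 7.19e-05), and Nkx6-1 differed by 1.95 (limma adjusted p = 0.000191). Tac1 differed by 3.32 (SE 0.67, limma adjusted p = 0.00144), a call lost without replicate 1 of d5 Ghigh or replicate 2 of d5 G-, with 2.08 and 3.23. Pcsk1, the convertase of many gut prohormones, was lower in Ghigh by -2.55 (limma adjusted p = 1.55e-05), and Npy1r, a receptor of the Npy and Pyy family, was at least 3.9-fold lower (limma adjusted p = 3.24e-05). At d3, where 1.74% of all genes were called, only Pcsk5 was called, with 8.86 ± 0.33 in G+ and 5.87 ± 0.76 in G- (limma adjusted p = 0.000382). With replicate number as a block, or without replicate 2 of d3 G-, Foxa1 was called there too, which made 2.

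**Figure D4:**
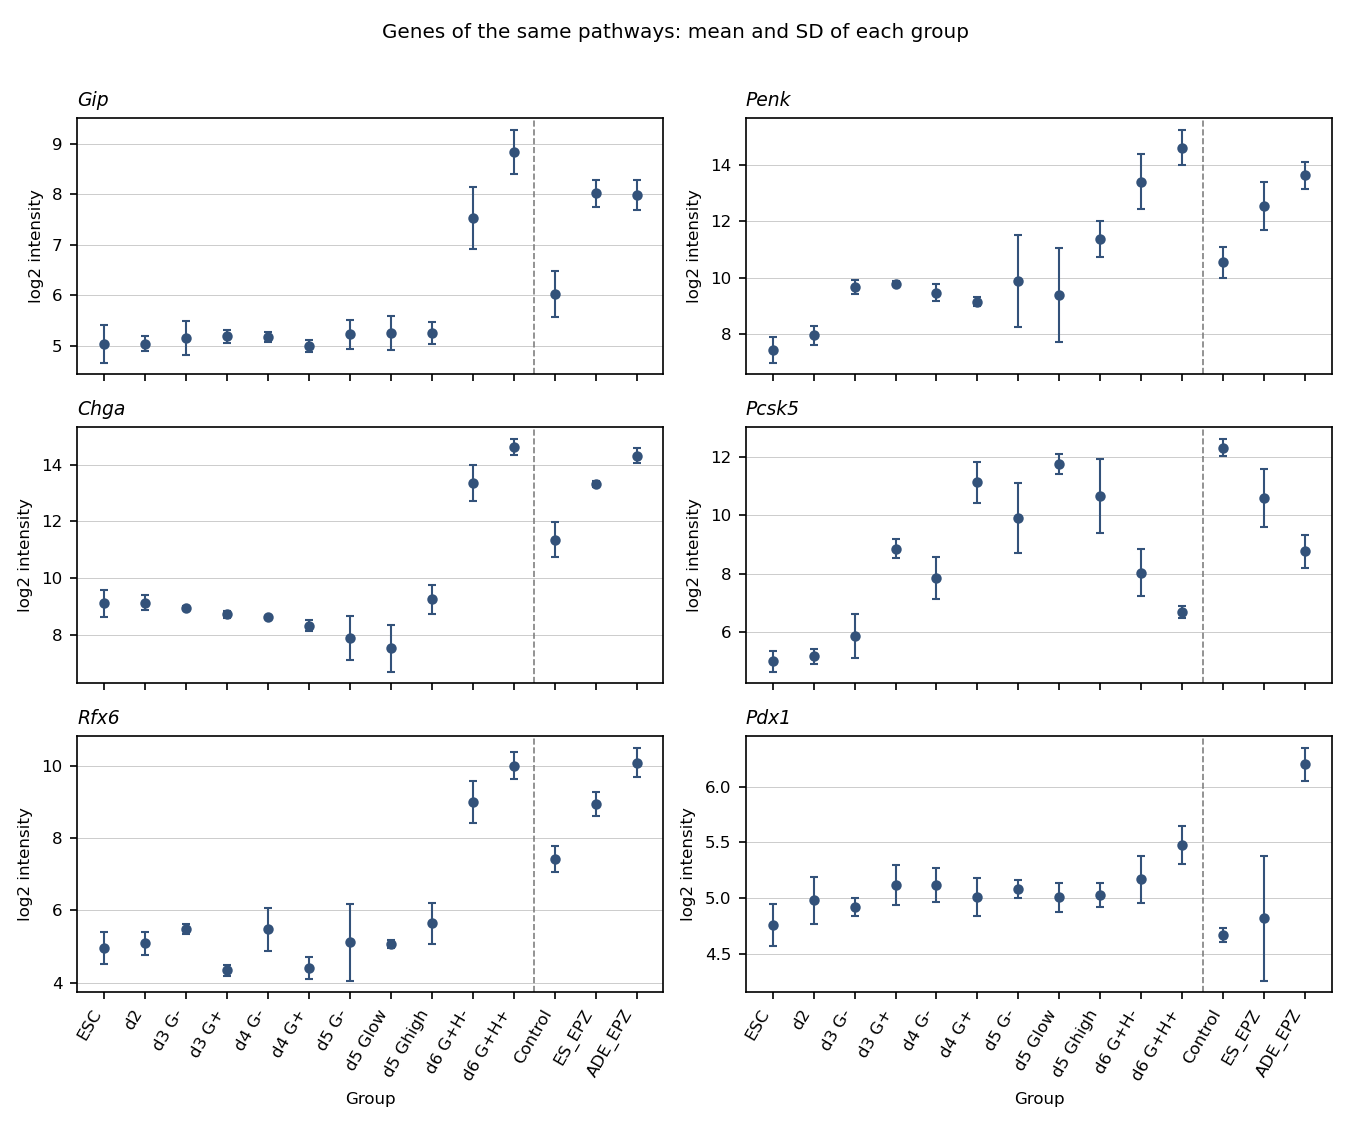
Mean log2 intensity (y axis) with its SD (bars, n = 3) of 6 genes of hormone production in the 14 groups (x axis). Gip, Chga and Rfx6 are high in the d6 populations and the EPZ6438 regimens, Pcsk5 peaks before d6 and in Control, and Pdx1 is highest in ADE_EPZ.

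In the inhibitor series 6 of the 73 genes were higher and 2 lower in ADE_EPZ than in Control, while 2.65% of all genes were called. The median difference was 0.11 over the lists and -0.01 over all genes. Penk differed by 3.09 (SE 0.61, limma adjusted p = 0.000664), Chga by 2.96 (SE 0.35, limma adjusted p = 1.06e-06) and Gip by 1.95 (SE 0.26, limma adjusted p = 4.39e-06). The call of Gip was lost with an offset of 50 in the background correction, where its difference was 1.46, and with 75th percentile scaling of the processed signal, where it was 2.39 (limma adjusted p = 0.0142). Rfx6 rose from 7.42 ± 0.37 to 10.09 ± 0.41 (limma adjusted p = 7.25e-06). Pdx1, a factor of pancreas and duodenum, was above background on no Control array and at least 2.75-fold higher (limma adjusted p = 8.58e-07). Its difference was 1.52, close to the threshold, and was 1.49 without replicate 1 of Control and 1.44 without replicate 2 of ADE_EPZ. Cpe, carboxypeptidase E, differed by 1.90 (limma adjusted p = 0.00127), a call lost without replicate 3 of Control or replicate 1 of ADE_EPZ, with 1.69 and 1.74. Pcsk5 fell by 3.56 (SE 0.54, limma adjusted p = 2.93e-05) and Etv1 by 1.69 (limma adjusted p = 0.000225), the latter by 1.45 and not called without replicate 3 of ADE_EPZ.

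In ES_EPZ 3 of the 73 genes were called against Control, all higher, while 0.408% of all genes were called. The median difference over the lists was 0.03. Gip differed by 1.99 (SE 0.26, limma adjusted p = 4.41e-05), Insm1, a factor of endocrine precursors, by 2.04 (SE 0.34, limma adjusted p = 0.00118) and Chga by 1.96 (SE 0.35, limma adjusted p = 0.00222). Insm1 was not called without replicate 3 of Control or replicate 1 of ES_EPZ, with 1.84 and 1.83. Chga was not called without replicates 1 or 3 of either group, with differences from 1.65 to 1.97. Between ADE_EPZ and ES_EPZ limma called 0 of the 73, and 2816 of all genes had an unadjusted p under 0.05. With replicate number as a block, Dpp4, the peptidase that trims Pyy and the incretins, was called there, with 7.46 ± 0.81 in ADE_EPZ and 5.78 ± 0.93 in ES_EPZ.

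Genes with the most similar profile were sought among 18716 genes over the 42 arrays, which share groups and slides, and Pearson's r is given as a description. Pyy was closest to Gip (r = 0.967), Tlx1 (0.953) and Myl3 (0.945). Sst was closest to Dbx1 (r = 0.969), Nxpe2 (0.945) and Bpifa1 (0.924). For Trh the nearest were Cldn6 (r = 0.907), Crb3 (0.899) and Nipal3 (0.893), and for Cckbr they were Dcbld1 and F11r (r = 0.874 for both) and the transcript XM_003689292 (0.873). Cck was nearest to Tlx1 (r = 0.837), Myh7 (0.826) and Slc38a8 (0.824), and Ghrl to Dnaja4 (r = 0.843), Myh7 (0.814) and XM_003689292 (0.799). Nts had the loosest match, with Krt20 (r = 0.824), Zmynd15 (0.752) and Arl14epl (0.742). Within the 33 untreated arrays Pyy and Sst had r = 0.94, and Pyy and Nts -0.12.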

How the data were processed

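RNA of 14 groups of mouse cells was measured on 42 Agilent one-colour arrays. The authors deposited, for each array, the scanner's median intensity of spot and background, and a table of log2 intensity, background-corrected by normexp (offset 10) and quantile normalised. Scanner files came from Agilent Feature Extraction 11.0.1.1 (untreated) and 12.0.1.1 (inhibitor series). The deposited log2 values were used, and values recomputed from the scanner columns correlated with them by 0.99998 or more on every array.

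Spots of a probe were averaged without the 7968 spots marked as outliers, which left out 146 probe values. Of 23171 accessions, 21865 had a symbol in the RefSeq table of GRCm38.p6. The scanner software's mark decided whether a probe was well above background. In R 4.3.3, limma 3.58.1 estimated the 14 group means from the 42 arrays together, with Benjamini-Hochberg adjustment over all probes. The SE of a difference uses the variance of the probe pooled over these groups, not the SDs of the groups compared. The brightest probe decided whether a gene met the call rule (adjusted p of 0.01 or less, absolute log2 difference of 1.5 or more). With 3 arrays against 3 an exact permutation test cannot go below p = 0.1. Where no array of a group was above background, a fold is a bound against the dimmest probes above background. Such a bound is a ratio of group means that allows for the undetected level only. It takes no account of the spread of replicates, and single replicates can lie below it. The procedure was tested on simulated data. Sequences came from RefSeq windows. The array design's own mm9 positions were not used.

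Named were the 7 genes, the up to 3 list genes per list and comparison with the largest change among those called and whose arrays were ordered alike in each of the 9 pairs, and the 3 genes most correlated with each of the 7. List members of a small count, marker genes, Neurog3, Ppy, Dpp4 and Foxa1 at d3 were named besides, after their values were seen. Genes and lists were chosen with earlier results of these data known.

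Same replicate numbers deviated together in every pair (r from 0.13 to 0.68) for d6 G+H+ against d5 Ghigh, d6 G+H+ against d6 G+H-, d3 G+ against d3 G- and ADE_EPZ against ES_EPZ, which are taken as paired by this check. For d5 Ghigh against d5 G- (r = 0.29, 0.08 and 0.57) and ADE_EPZ against Control (0.17, 0.07 and 0.12) r was also above 0 throughout. It was weak in replicate 2, and these comparisons were not taken as paired. ADE_EPZ and ES_EPZ arrays of the same number always shared a slide, as did those of d3 G+ and d3 G- in replicates 2 and 3. There slide and replicate number cannot be told apart. ADE_EPZ and Control arrays of the same number shared no slide. Against ESC r was -0.05 in replicate 1, and for ES_EPZ against Control it was -0.07 in replicate 2. Alternatives were recomputed values, an offset of 50, no background correction, 75th percentile scaling, a filter on dim probes, other probes of a gene, fewer arrays in the fit, slide or replicate number as a block, and leaving out each array.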

Additional observations from a re-analysis of the deposited data

Results flagged for a closer look

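The G+ to G- difference of Chga and of Neurog3, the factor that starts endocrine differentiation, ran in opposite directions at d3 and d5 on every pair of arrays. Chga was 8.71 ± 0.11 in d3 G+ and 8.93 ± 0.07 in d3 G-, but 9.24 ± 0.52 in d5 Ghigh and 7.87 ± 0.77 in d5 G-, a change between the days of 1.59 (SE 0.49, limma adjusted p = 0.164). Neurog3 was 5.02 ± 0.27 in d3 G+ and 5.88 ± 0.18 in d3 G-, and 5.78 ± 0.97 in d5 Ghigh and 5.00 ± 0.07 in d5 G-, a change of 1.63 (SE 0.36, limma adjusted p = 0.0167). Neither change met the call rule, nor did any other of the 73 genes of the 4 lists, where 121 of all 22278 genes were called and 2648 had an unadjusted p under 0.05. Groups of 3 arrays were not searched for single arrays that stand apart.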

How the results depend on the processing

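No difference of the 7 genes that was called changed its sign under any alternative, and the recomputed values gave the same calls as the deposited ones. Of 56 differences of the 7 genes, 11 moved by more than the spread of replicates with an offset of 50. With no background correction 3 did. With 75th percentile scaling of the scanner's processed signal, which replaces both the background correction and the normalisation, 23 did. Leaving out 1 of 3 arrays cannot move a difference by that spread. The 0 of 336 that moved when 1 array was left out therefore says nothing about stability. Between d6 G+H+ and ESC 2 of the 7 genes were called with an offset of 50 and 2 with no correction, in place of 4 (Cckbr and Nts were lost), and between d6 G+H+ and d5 Ghigh 2 and 2 in place of 5 (Ghrl, Cckbr and Cck were lost), with 1 in a fit of these 2 groups only. In ES_EPZ against Control the single call went to 0 with an offset of 50, with no correction, in a fit of the 2 groups only and in a fit of the 9 inhibitor arrays, and to 2 with the filter on dim probes and with slide as a block, fixed or random (correlation 0.209). In ADE_EPZ against ES_EPZ the call of Ghrl went to 0 in a fit of the 2 groups only and of the inhibitor arrays, and at d3 a fit of the 2 groups called 1, Trh.

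Of the 73 list genes, ES_EPZ against Control had 1 called with 75th percentile scaling, 0 in a fit of the 2 groups or of the inhibitor arrays and 5 with slide as a random block, in place of 3. Between d5 Ghigh and d5 G- 0 in place of 5 were called in a fit of the 2 groups, and at d3 2 in place of 1 with either slide block. Against ESC, Tac1 was not called with either slide block, an offset of 50, no correction, or a fit of the 2 groups or of the untreated arrays (2.3 in the last 2, and 1.52 to 2.26 in the others), nor Pax6 with an offset of 50 (-1) or no correction (-1.23), nor Furin in a fit of the 2 groups. In ES_EPZ against Control Gip was not called with an offset of 50 (1.49) or with 75th percentile scaling (2.42). Over all genes, ES_EPZ against Control had 91 called, but 43 with 75th percentile scaling, 0 in a fit of the 2 groups, 18 of the inhibitor arrays, 161 with the random slide block, 144 with the replicate block and 13 to 214 when 1 array was left out. A fit of the 2 groups called 437 in place of 893 genes for d6 G+H+ against d5 Ghigh, 116 in place of 552 at d5, 252 in place of 388 at d3 and 11 in place of 28 between the inhibitor regimens, where the replicate block gave 44, an offset of 50 gave 13 and no correction 16. An offset of 50 gave 352 at d5 and 255 at d3, and 75th percentile scaling 59 in place of 121 for the change between d3 and d5. Scaling by the 75th percentile moved the median of all genes by up to 0.12, and of the genes called against d5 Ghigh 55% were higher in place of 65.7%. The cause was not tested, beyond fewer arrays in the fit where 2 groups or 1 series were used.

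With replicate number as a block, the calls of the 7 genes were 5 in place of 4 for d6 G+H+ against ESC, 6 in place of 5 against d5 Ghigh and 2 in place of 1 for ES_EPZ against Control, and those of list genes 2 in place of 1 at d3, 6 in place of 5 at d5, 1 in place of 0 for ADE_EPZ against ES_EPZ and 1 in place of 0, Pcsk1, for the change between d3 and d5. The block lost no call. Numbers were not taken to pair the samples in the comparisons with ESC, with Control and at d5. At d5 and for ADE_EPZ against Control, same numbers did deviate together weakly in every replicate.

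Leaving out 1 array in turn gave, for the 7 genes, 4 to 5 calls against ESC, 2 to 6 against d5 Ghigh, 2 to 4 for ADE_EPZ and 0 to 1 for ES_EPZ against Control, 1 for ADE_EPZ against ES_EPZ and 0 in the other comparisons. The 4 for ADE_EPZ came without its replicate 3, which added Cckbr and Cck. For list genes the ranges were 14 to 18, 10 to 13, 7 to 9, 1 to 4 and 0 to 1 in the same order, 4 to 7 at d5, 1 to 2 at d3, 0 between the d6 populations and 0 to 2 for the change between d3 and d5. The group with the highest mean was kept for 4 to 7 of the 7 genes, with 4 without replicate 1 of d6 G+H+. Signal near background limits Sst, Nts, Cck and Cckbr before d6.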
